A study of Mus musculus with 8 samples.

Results

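The Sox transcription factors described here are 10 genes, *Sox2*, *Sox4*, *Sox5*, *Sox7*, *Sox9*, *Sox13*, *Sox15*, *Sox17*, *Sox18* and *Sox21*, taken as a list and found by their Ensembl identifiers among the 52325 genes of the count table. RNA was sequenced from endometrium taken by laser capture out of frozen sections of the uterus, from 4 *Thra1*PV/+ and 4 WT mice. Mutant mice have PV, a mutation of thyroid hormone receptor alpha 1, knocked into 1 allele of *Thra* in all tissues, and the other allele is WT. Both genotypes were synced at metestrus, no treatment is named for them, and the ages of these 8 mice are not given in the sources used here. The comparison asks how the Sox genes of the uterine lining differ between the genotypes. Library totals ranged from 48791602 to 59818887 estimated counts.

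Sox proteins bind DNA through a shared HMG box and are sorted into groups by the sequence of that box. In the uterus, SOX17 is found in the columnar epithelium and in vessels and is needed for gland formation and implantation, and SOX9 marks glandular epithelium. SOX2, SOX15 and SOX21 are known from stratified squamous epithelia such as epidermis and esophagus, where SOX2 works beside p63 in the basal layer. SOX7, SOX17 and SOX18 form the F group, which acts in blood and lymph vessels.

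The libraries held endometrial transcripts in differing mixtures. The 12 simple epithelium genes, led by *Krt8*, summed to 3027, 7218, 7637 and 5480 CPM (counts scaled to the library total after TMM normalization) in *Thra1*PV/+ libraries 1 to 4 and to 2974, 3483, 8687 and 7717 CPM in WT libraries 1 to 4. The 10 endometrial stroma genes, led by *Col3a1*, summed to 6555, 527, 1249 and 1636 CPM in *Thra1*PV/+ and to 6291, 6278, 1895 and 2165 CPM in WT libraries. Library 1 of *Thra1*PV/+ and libraries 1 and 2 of WT thus stood apart as high in stroma and low in epithelium. The 8 smooth muscle genes, led by *Acta2*, summed to 13300 CPM in WT library 1 and to between 150 and 1169 CPM in the other 7 libraries, so WT library 1 also stood apart in muscle.

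The uterine Hox gene *Hoxa10*, which marks endometrial stroma, was present in all 8 libraries, at 11.5 to 534 CPM. It was highest in *Thra1*PV/+ library 1 and WT libraries 1 and 2, the libraries high in stroma. As a stromal gene it does not show where epithelium came from, and the origin of the squamous transcripts was not tested. Of the lower reproductive tract Hox genes, which mark cervix and vagina, *Hoxa13* was the most abundant and reached at most 0.251 CPM in any library. Squamous markers did follow genotype. The 16 squamous epithelium genes summed to 3490, 5749, 5866 and 4281 CPM in *Thra1*PV/+ libraries and to 95.7, 129, 395 and 244 CPM in WT libraries, and *Krt5*, their most abundant gene, held 1461 ± 446 CPM against 8.48 ± 7.30 CPM (SD, n = 4 each). In bulk tissue, more cells of a type and more RNA per cell cannot be told apart. *Thra* measured 127, 45.8, 67.8 and 80.0 CPM in *Thra1*PV/+ and 110, 104, 50.3 and 47.4 CPM in WT libraries. The 3 stroma-rich libraries were the highest, the genotypes overlapped, and the counts do not separate the PV transcript from the WT transcript.

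**Figure D1:**
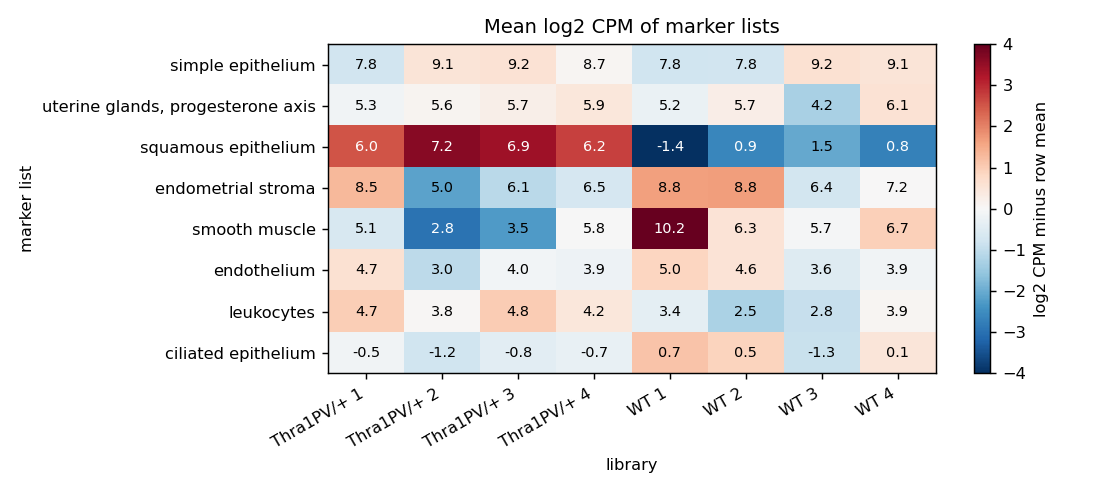
Mean log2 CPM of the tested genes of 8 marker lists (rows) in each of the 8 libraries (columns), printed in each cell and coloured by the difference from the mean of its row. The squamous row is higher in all 4 *Thra1*PV/+ libraries, while the stromal row is highest in *Thra1*PV/+ library 1 and WT libraries 1 and 2.

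Levels of different Sox genes were compared in the authors' TPM values, which are scaled by transcript length. *Sox17* (139 ± 98.2 TPM, SD, n = 8) and *Sox4* (136 ± 54.5 TPM) were the most abundant of the 19 Sox genes examined, and the order of this pair was within their spread. *Sox13* (30.8 ± 6.55 TPM), *Sox7* (30.4 ± 12.7 TPM) and *Sox9* (20.4 ± 12.4 TPM) followed, again with overlapping spreads, and *Sox18* stood at 13.4 ± 4.05 TPM. At lower levels, *Sox15* stood at 3.86 ± 1.18 TPM (SD, n = 4) in *Thra1*PV/+ and 0.142 ± 0.125 TPM in WT libraries, and *Sox21* at 2.72 ± 0.885 TPM and 0.0552 ± 0.0496 TPM. *Sox5* reached 6.16 TPM in WT library 2 and at most 1.60 TPM elsewhere, and *Sox2* reached 1.99 TPM in WT library 3 and at most 0.203 TPM elsewhere. *Sox4* and *Sox17* together made up between 58.9% and 81.9% of the summed Sox TPM of a library. *Sox15* and *Sox21* together made up between 1.35% and 2.63% of it in *Thra1*PV/+ libraries and at most 0.109% in WT libraries. Within *Thra1*PV/+ libraries the uterine pair *Sox17* and *Sox9* still exceeded the squamous trio *Sox2*, *Sox15* and *Sox21* in summed TPM by 12.2-fold to 29.1-fold.

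**Figure D2:**
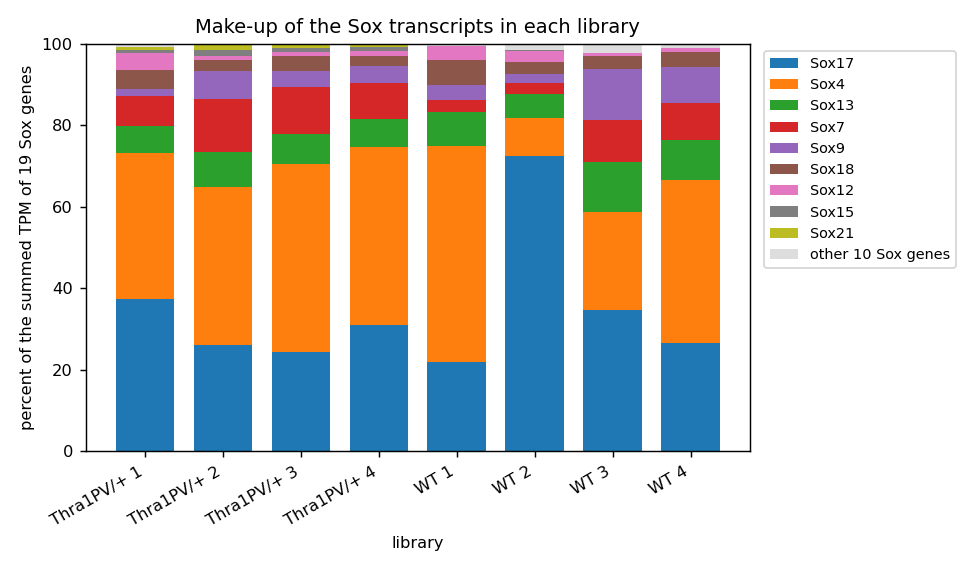
Percent of the summed TPM of 19 Sox genes (y axis) held by each gene in each library (bars), with the other 10 genes drawn together in grey. *Sox17* and *Sox4* fill most of every bar, *Sox17* alone holds 72.4% of WT library 2, and *Sox15* and *Sox21* are visible only in the *Thra1*PV/+ bars.

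Of the 10 Sox genes, 9 passed the filter on low counts, and 2 of them, *Sox15* and *Sox21*, were called between genotypes, both higher in *Thra1*PV/+ endometrium. A call required edgeR's quasi-likelihood test to give an adjusted p of at most 0.1 with at least a 2-fold change, which held for 180 of all 18174 tested genes (0.990%), 168 of them higher (0.924%). DESeq2, run on 30306 genes, called 793, 567 of them higher. An unadjusted p under 0.05 was reached by 9.77% of tested genes. The same 2 Sox genes were those whose 4 *Thra1*PV/+ libraries all lay above the 4 WT libraries, as did those of 3.55% of tested genes, and no Sox gene of the 10 showed the opposite order, as 2.49% of tested genes did. Of the 9 tested Sox genes, 4 had a positive and 5 a negative log2 fold change, with a median of -0.31 beside -0.05 over all tested genes. The p-values judge the genotype difference against the spread between the 4 mice of a genotype, estimated with information shared across genes. *Sox15* and *Sox21* passed the filter through the *Thra1*PV/+ libraries alone, and *Sox2* did not pass it.

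**Figure D3:**
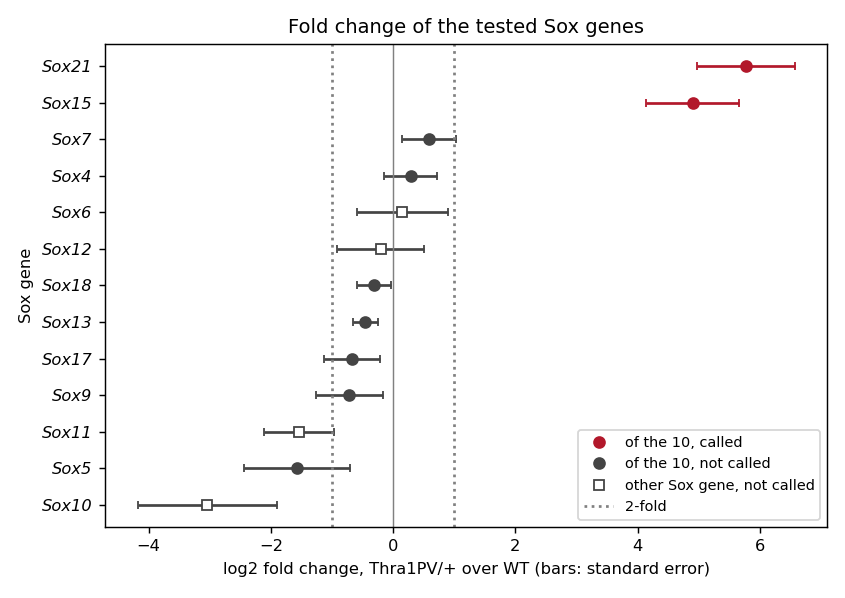
Log2 fold change of *Thra1*PV/+ over WT (x axis) with its standard error (bars) for the 13 tested Sox genes (y axis), filled circles for 9 of the 10 and open squares for 4 other Sox genes. *Sox21* and *Sox15* lie beyond the dotted 2-fold lines at 5.77 and 4.90, and the other genes were not called.

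*Sox17* and *Sox9*, the Sox genes of uterine epithelium, were not called. *Sox17* (chromosome 1 of GRCm38, 4490931 to 4497354) measured 105, 85.3, 88.4 and 145 CPM in *Thra1*PV/+ libraries 1 to 4 and 77.5, 355, 135 and 107 CPM in WT libraries 1 to 4. WT library 2 was far above the other 7 libraries, which overlapped between genotypes. The log2 fold change of *Sox17* was -0.67 (standard error, SE, 0.46, adjusted p = 0.699), and without WT library 2 it was 0.02 (adjusted p = 0.997). With all 3 stroma-rich libraries left out, a choice made after the values were seen, it was -0.15 (adjusted p = 0.904). *Sox4* was lowest in that library, at 48.9 TPM beside 374 TPM of *Sox17*.

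*Sox9* (chromosome 11, 112782224 to 112787760) measured 17.2, 61.0, 40.9 and 57.2 CPM in *Thra1*PV/+ and 35.9, 31.2, 133 and 90.4 CPM in WT libraries. The 3 stroma-rich libraries were the lowest, and among the other 5 the WT libraries lay above the *Thra1*PV/+ libraries. The log2 fold change was -0.72 (SE 0.55, adjusted p = 0.736) over all 8 libraries and -1.03 (adjusted p = 0.197) with the 3 stroma-rich libraries left out, a choice made after the values were seen. It was -0.23 (adjusted p = 0.880) without WT library 3 and -0.41 (adjusted p = 0.789) without *Thra1*PV/+ library 1.

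Set against the simple epithelium genes of the same library, *Sox9* varied less. Its log2 CPM minus their mean was -3.73, -3.21, -3.83 and -2.85 in *Thra1*PV/+ libraries and -2.66, -2.87, -2.17 and -2.63 in WT libraries. WT values were nearer to the markers, with 1 *Thra1*PV/+ library among them. The difference of -0.82 did not pass the adjusted threshold of 0.1 (two-sided exact permutation test, p = 0.0571, adjusted p = 0.286 over the 5 such tests of genes with enough counts in both genotypes, a family set after the values were seen), and with 1 library left out it ranged from -1.01 (adjusted p = 0.143, without *Thra1*PV/+ library 4) to -0.68 (adjusted p = 0.429, without *Thra1*PV/+ library 3). A single ratio could not pass that threshold, since the lowest possible exact p, 0.0286, adjusts to 0.143 over 5 tests when it stands alone. *Sox17* minus the same markers differed by -0.66 (exact permutation test, p = 0.514, adjusted p = 0.857), or by 0.01 without WT library 2. The simple epithelium genes had a median log2 fold change of 0.03, with 6 positive and 6 negative, and 0 of 12 were called by edgeR or DESeq2 or had an unadjusted p under 0.05. Of 11 tested genes of uterine glands and the progesterone response, led by *Ltf*, 0 were called by either tool and 0 had an unadjusted p under 0.05.

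*Sox15*, the lone member of its group, and *Sox21*, a B2 group gene that acts as a repressor, were the Sox genes that rose. *Sox15* (chromosome 11, 69655314 to 69656727) held 94, 118, 103 and 165 counts in *Thra1*PV/+ and 0, 3, 7 and 5 counts in WT libraries. *Sox21* (chromosome 14, 118233232 to 118237030) held 267, 352, 275 and 252 counts in *Thra1*PV/+ and 0, 4, 9 and 7 counts in WT libraries. Every *Thra1*PV/+ library was above every WT library for both genes, and WT library 1 had no count of either. *Sox21* rose by a log2 fold change of 5.77 (SE 0.80, adjusted p = 0.0202), and *Sox15* rose by 4.90 (SE 0.77, adjusted p = 0.0326). The folds rest on a denominator of few WT counts. *Sox21* was called with any 1 library left out, while the adjusted p-value of *Sox15* came to 0.115 without *Thra1*PV/+ library 3, 0.101 without WT library 2 and 0.114 without WT library 4. Neither gene was called by edgeR with the replicate number as a block (adjusted p = 0.107 for *Sox21* and 0.123 for *Sox15*).

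Both promoters are shown because these genes rose together. They run from 250 bases before to 50 bases after the RefSeq start site (GRCm38.p6), Sox15 at chr11:69654787-69655086 on the plus strand and Sox21 at chr14:118236981-118237280 on the minus strand. Capitals mark matches on either strand to AGGTCA (the core motif of thyroid hormone receptors), ACAAAG or ACAATG (forms of the Sox motif) and GGGCGG (the GC box).
Sox15: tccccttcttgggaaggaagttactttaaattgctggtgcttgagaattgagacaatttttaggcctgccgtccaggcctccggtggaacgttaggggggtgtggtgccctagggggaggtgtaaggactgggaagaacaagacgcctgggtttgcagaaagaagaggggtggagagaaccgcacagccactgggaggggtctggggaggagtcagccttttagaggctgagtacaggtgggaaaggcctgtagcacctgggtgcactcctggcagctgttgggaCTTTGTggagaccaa
Sox21: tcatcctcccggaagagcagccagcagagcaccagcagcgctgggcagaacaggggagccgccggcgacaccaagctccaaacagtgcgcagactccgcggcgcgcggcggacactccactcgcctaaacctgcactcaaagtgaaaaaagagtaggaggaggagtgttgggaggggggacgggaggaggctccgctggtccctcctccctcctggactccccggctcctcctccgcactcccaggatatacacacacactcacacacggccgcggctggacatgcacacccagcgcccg
The *Sox15* window holds 1 ACAAAG match, on the opposite strand and starting 36 bases into the RefSeq transcript, and none of the other motifs. This start site lies before the GENCODE start given above for *Sox15*, so the whole window, with the match, is upstream of the gene as placed there. The *Sox21* window, with 65.7% G and C, holds none of the 4 motifs. Among 32851 mouse promoters of the same length, 16.3% hold AGGTCA, 18.7% ACAAAG, 12.6% ACAATG and 35.7% GGGCGG on either strand. Of the 10 genes, 6 had a promoter in the table, and AGGTCA was found in those of *Sox2* and *Sox4*.

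*Sox21* shares its locus with *Gm4675*, a long noncoding gene on the opposite strand that was picked out after its values were seen. It had 14, 47, 19 and 21 counts in *Thra1*PV/+ and 0, 1, 3 and 1 counts in WT libraries. The kit kept strand, but whether the counting used it is not given in the sources used here, so reads of *Sox21* and *Gm4675* may not be fully separated. *Sox15* overlaps the end of *Mpdu1* by 31 bases, and *Mpdu1* held between 2471 and 3744 counts in all 8 libraries, with no such step between genotypes.

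*Sox2*, the Sox gene of squamous progenitors, was near absent in 7 of 8 libraries. It had 0, 13, 0 and 1 counts in *Thra1*PV/+ and 0, 0, 111 and 0 counts in WT libraries. *Thra1*PV/+ libraries, in which squamous markers summed to 3490 CPM or more, thus held at most 0.264 CPM of *Sox2*, and the highest library was WT library 3, at 2.21 CPM. The limit of 3 counts corresponds to between 0.0525 and 0.0628 CPM, so 6 of 8 libraries were at or below it. No fold change is given. *Sox2* lies inside *Sox2ot* on the same strand, a noncoding gene with 124 counts in WT library 2 and at most 7 elsewhere.

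**Figure D4:**
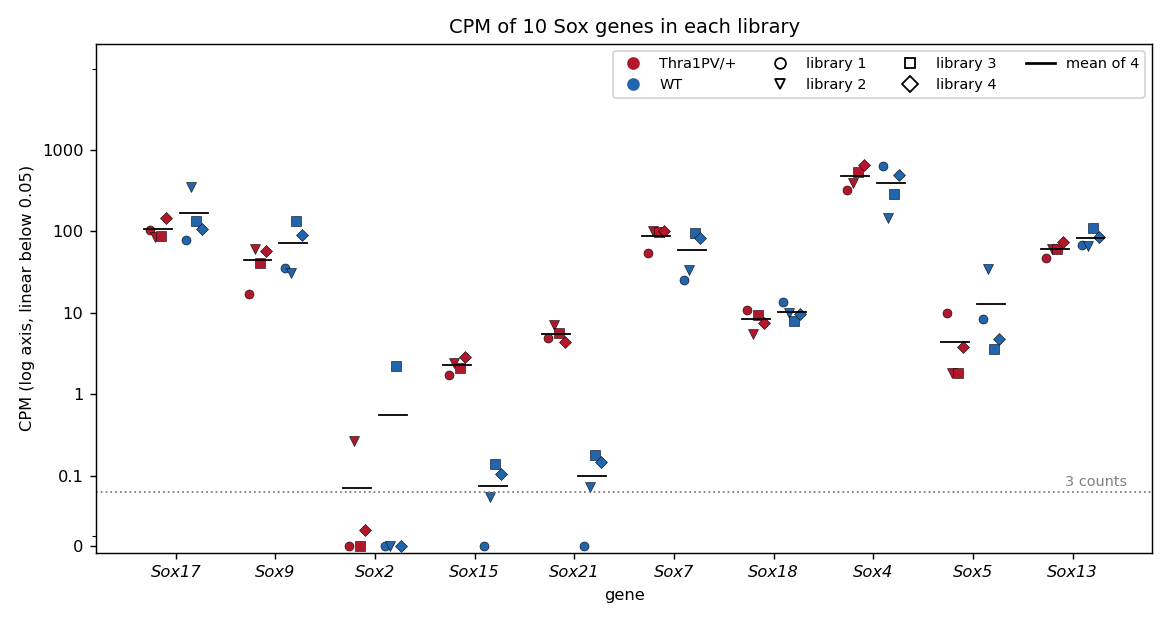
CPM (y axis, log scale, linear below 0.05) of the 10 Sox genes (x axis) in the 4 *Thra1*PV/+ (red) and 4 WT (blue) libraries, with symbols by library number, a line at each mean and a dotted line at the highest CPM that 3 counts amount to. *Sox15* and *Sox21* show no overlap between genotypes, *Sox2* is at or near 0 in most libraries, and *Sox17* of WT library 2 reaches 355 CPM.

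The 9 genes that work with SOX2 in squamous progenitors were listed with earlier results of these data known. Of them, *Trp63* is also in the squamous epithelium list and *Klf5* in that of uterine glands. Of the 9, 8 were tested and 4 were called, all higher in *Thra1*PV/+, beside 0.990% of all tested genes called. The median log2 fold change was 2.36. *Trp63*, which encodes p63, measured 56.4, 93.5, 74.5 and 53.2 CPM in *Thra1*PV/+ libraries and at most 2.04 CPM in WT libraries, a log2 fold change of 6.11 (SE 0.53, adjusted p = 0.00333). The AP-2 factors *Tfap2a* (21.9 ± 8.88 CPM against 0.328 ± 0.0620 CPM, SD, n = 4, log2 fold change 6.05, adjusted p = 0.00113) and *Tfap2c* (log2 fold change 3.97, adjusted p = 0.00394) and the homeobox gene *Pitx1* (log2 fold change 6.76, adjusted p = 0.0192) were the others. All 4 calls held with any 1 library left out. *Klf5*, the most abundant of the list, had 130 ± 61.2 CPM against 101 ± 34.9 CPM and was not called.

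The 16 squamous epithelium genes were listed with earlier results of these data known. Some of them, such as *Ivl*, passed the filter through the *Thra1*PV/+ libraries alone. Of the 16, 15 were tested and 11 were called, all higher, beside 0.990% of all tested genes called. The median log2 fold change of the tested squamous genes was 6.76. With 1 library left out, between 6 and 11 of them were called, and DESeq2 called 15. Among them *Col17a1*, a hemidesmosome collagen, had a log2 fold change of 7.17 (adjusted p = 0.00113), *Lgals7*, a galectin of stratified epithelia, of 6.77 (adjusted p = 0.00515) and *Krt5* of 7.43 (adjusted p = 0.0268, or 0.115 without WT library 4). *Ivl*, a cornified envelope precursor, had at most 3 counts in each WT library and was at least 221-fold higher in *Thra1*PV/+ (adjusted p = 0.00143), taking 3 counts per WT library as the limit, and the list's median was the same with this bound. *Sox21* and *Sox15* thus rose alongside the squamous markers, and the part of squamous cell number in their rise was not tested. Set against the mean log2 CPM of the squamous genes, *Sox15* differed by -1.61 and *Sox21* by -0.57 between genotypes with a prior count of 2, and by -1.09 and -0.10 with a prior count of 0.5. With *Krt5* in place of these genes the differences were -3.77 for *Sox15* and -2.74 for *Sox21*. WT libraries held at most 9 counts of either gene, so these differences depend on the prior count. They also depend on the markers and are not given as tests. The same ratio for *Sox2*, at or below 3 counts in 3 of 4 libraries of each genotype, follows the markers alone and is not given.

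*Sox7* and *Sox18*, the F group genes of vessels besides *Sox17*, were not called and followed different libraries. *Sox7* (chromosome 14, 63943673 to 63950732) measured 53.6, 102, 99.7 and 99.9 CPM in *Thra1*PV/+ and 25.5, 33.9, 94.9 and 82.5 CPM in WT libraries. *Sox18* (chromosome 2, 181669836 to 181671640) measured 10.9, 5.44, 9.34 and 7.57 CPM in *Thra1*PV/+ and 13.8, 9.98, 7.997 and 9.57 CPM in WT libraries. The 3 stroma-rich libraries were the lowest for *Sox7* and the highest for *Sox18*. The log2 fold changes were 0.59 for *Sox7* (SE 0.44, adjusted p = 0.731) and -0.31 for *Sox18* (SE 0.28, adjusted p = 0.780), with overlap between genotypes for both. With the 3 stroma-rich libraries left out they were 0.22 (adjusted p = 0.609) and -0.20 (adjusted p = 0.867). With 1 library left out, *Sox7* ranged from 0.38 (without WT library 1) to 0.93 (without WT library 3) and *Sox18* from -0.43 to -0.10, the latter without WT library 1.

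The 12 endothelium genes, led by *Pecam1*, summed to 376, 123, 234 and 207 CPM in *Thra1*PV/+ and 437, 366, 186 and 240 CPM in WT libraries. None of the 12 was called by edgeR or DESeq2, and 0 had an unadjusted p under 0.05. *Sox18* kept close to these markers. Its log2 CPM minus their mean was -0.89 ± 0.28 in *Thra1*PV/+ and -0.93 ± 0.36 in WT libraries (SD, n = 4 each), a difference of 0.05 (two-sided exact permutation test, p = 0.857, adjusted p = 0.943). *Sox7* did not, at 2.52 ± 1.08 and 1.40 ± 1.56 (difference 1.13, exact permutation test, p = 0.257, adjusted p = 0.643, and between 0.57 without WT library 1 and 1.66 without WT library 3). *Sox7* was instead high in the libraries with high sums of simple epithelium genes and low in those with low sums. *Sox17* minus endothelium was 2.79 ± 0.66 and 2.86 ± 1.12 (difference -0.07, exact permutation test, p = 0.943, adjusted p = 0.943, and between -0.59 without WT library 1 and 0.25 without WT library 2). That of *Sox18* lay between -0.08 and 0.17 with 1 library left out.

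**Figure D5:**
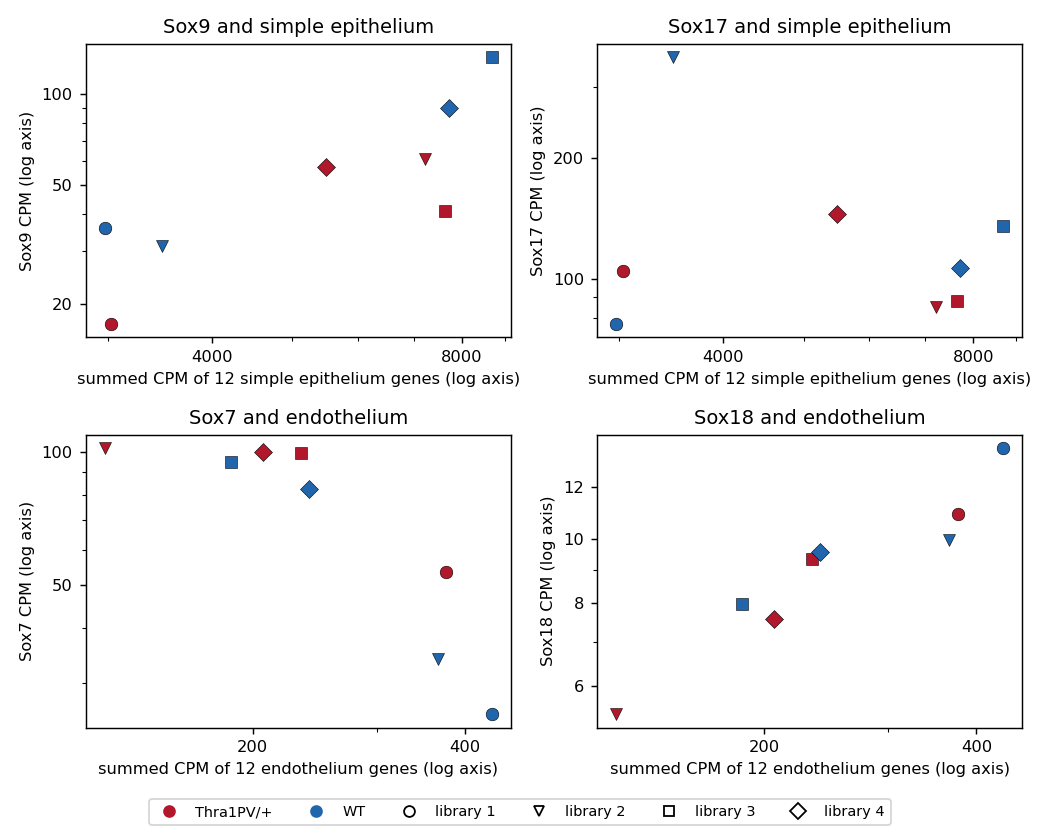
CPM of *Sox9* and *Sox17* against the summed CPM of 12 simple epithelium genes, and of *Sox7* and *Sox18* against that of 12 endothelium genes (log axes), 1 point per library, red for *Thra1*PV/+ and blue for WT. *Sox18* is high where endothelium is high, *Sox7* is lowest in the 3 libraries with the most endothelium, and *Sox17* of WT library 2 lies apart at 355 CPM.

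*Sox4*, a C group gene expressed in many progenitor cells, measured 319, 391, 543 and 651 CPM in *Thra1*PV/+ and 636, 146, 290 and 487 CPM in WT libraries. WT library 2 was lowest and the genotypes overlapped (log2 fold change 0.29, SE 0.44, adjusted p = 0.889, and between 0.05 without WT library 2 and 0.67 without WT library 1). *Sox13* and *Sox5* belong to the D group, whose proteins lack an activation domain of their own. *Sox13* measured 47.4, 60.1, 60.8 and 73.4 CPM in *Thra1*PV/+ and 67.3, 67.1, 110.4 and 86.3 CPM in WT libraries. Of these, only *Thra1*PV/+ library 4 exceeded a WT library, and *Sox13* had the smallest ratio of highest to lowest library of the 7 genes counted in every library, 2.33 (log2 fold change -0.45, SE 0.20, adjusted p = 0.529). *Sox5* measured 9.86, 1.81, 1.84 and 3.85 CPM in *Thra1*PV/+ and 8.36, 35.0, 3.56 and 4.75 CPM in WT libraries. The 3 stroma-rich libraries were its highest, WT library 2 above all, and the log2 fold change moved from -1.57 (SE 0.86, adjusted p = 0.616) to -0.69 (adjusted p = 0.635) with those 3 left out. It was -0.34 (adjusted p = 0.966) without WT library 2 and -2.31 (adjusted p = 0.376) without *Thra1*PV/+ library 1. Of 10 genes of the cartilage program that SOX5, SOX6 and SOX9 drive together, 4 were tested, 0 were called by edgeR or DESeq2 and 1 had an unadjusted p under 0.05. That gene was *Col9a2*, with 14.4 CPM in WT library 2 and at most 2.52 CPM elsewhere, and *Col11a2*, the most abundant on average, reached 8.79 CPM.

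Outside the 10, 9 more Sox genes were examined, of which 4 passed the filter, 0 were called and 2 had an unadjusted p under 0.05, and DESeq2 called 1, *Sox10*. *Sox10*, a gene of Schwann cells and melanocytes, measured 1.03, 0, 0.450 and 0.438 CPM in *Thra1*PV/+ and 0.572, 3.21, 8.32 and 3.77 CPM in WT libraries. The highest values were in WT libraries 2 to 4, and WT library 1 was below 1 *Thra1*PV/+ library (log2 fold change -3.04, SE 1.14, adjusted p = 0.433, with 0.0774 by DESeq2 and 0.654 with the replicate block). Of the 10 Schwann cell and neuron genes, 5 were tested and 0 were called by edgeR or DESeq2 or had an unadjusted p under 0.05, with a median log2 fold change of -0.64, and *Erbb3* was the most abundant. *Sox11* held at most 0.984 CPM, with all WT libraries above all *Thra1*PV/+ libraries (log2 fold change -1.54, SE 0.57, adjusted p = 0.426). *Sox12* ranged from 5.93 to 41.9 CPM and was highest in the 3 stroma-rich libraries (log2 fold change -0.20, SE 0.71, adjusted p = 0.960), and *Sox6* held at most 1.10 CPM (log2 fold change 0.15, SE 0.75, adjusted p = 0.974). *Sox14* had no count in any library.

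Each genotype's mean was subtracted, and likeness was taken across the 8 libraries. As a description only, the 3 genes most like each of *Sox17*, *Sox9*, *Sox15* and *Sox21* were found among 12127 genes. They were *Ugp2*, *Exosc7* and *Smarcd2* for *Sox17* (Pearson r of 0.990, 0.975 and 0.967) and *Dlg1*, *Proser2* and *Hook2* for *Sox9* (0.987, 0.980 and 0.980). They were *Rundc3b*, *Tbc1d30* and *Atxn3* for *Sox15* (0.989, 0.984 and 0.980) and *D10Wsu102e*, *Nudcd1* and *6030458C11Rik* for *Sox21* (0.990, 0.988 and 0.986), where the WT side of the pattern rests on 0 to 9 counts per library. None of these 12 genes was called between genotypes. No such list was made for the other Sox genes, and *Sox2* could have none, since it did not pass the filter.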

How the data were processed

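The 10 Sox genes and the gene lists were chosen with earlier results of these data known. The authors used Trimmomatic on the reads and Salmon with mm10 for quantification, and deposited estimated counts per gene without normalization. The authors also deposited TPM values. Sorted TPM values differed by at most 0.291 at any rank between libraries, which is the form quantile normalization gives, and 1 further column of values was not used. Estimated counts were rounded, filtered with filterByExpr (minimum count 10, minimum total 15) and normalized by TMM. They were tested with edgeR 4.0.16 (limma 3.58.1, R 4.3.3) with genotype as the only term and Benjamini-Hochberg adjustment over 18174 genes. Standard errors were derived from the log2 fold change and the F statistic. Log2 CPM used a prior count of 2. DESeq2 1.42.0, other normalizations and filters, limma on log2 TPM, the replicate number as a block and each library left out were alternatives. Named genes were the 10, tested Sox genes outside them, *Thra*, up to 4 called members by lowest p and the most abundant member of each list, and the 3 genes most correlated with *Sox17*, *Sox9*, *Sox15* and *Sox21* among genes whose log2 CPM averaged 2 or more. Outside this rule, *Hoxa10*, *Col9a2*, *Sox1*, *Sox14* and genes that overlap Sox genes were named as well. Positions are from GENCODE M21 (GRCm38), and promoters are RefSeq's. The limit of 3 counts covers counting error only.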

Additional observations from a re-analysis of the deposited data

Results flagged for a closer look

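Of 20 groups examined, the 10 Sox genes in each genotype, 2 held a library far from the other 3 on the log2 CPM scale, where chance gives about 1 in 20. *Sox2* in WT libraries was at 1.17 in library 3, while the other 3 had no count, so any count there would have stood apart and this group cannot be set against the chance rate. *Sox7* in *Thra1*PV/+ libraries was at 5.74 in library 1, while the other 3 lay between 6.64 and 6.68.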

How the results depend on the processing

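The number of genes called was 180 by edgeR's quasi-likelihood test. It was 793 by DESeq2 on the 30306 genes with at least 1 count in any library, and 187 by edgeR on the same genes. It was 81 with at least 10 counts required in every library, and 119 at an adjusted p of 0.05 or less, and it ranged from 81 (without *Thra1*PV/+ library 3) to 167 with 1 library left out, with 116 without *Thra1*PV/+ library 2 and 114 without WT library 4. With the replicate block it was 82. Same-numbered libraries of the genotypes deviated from their group means with correlations of 0.27, -0.44, 0.34 and -0.16. *Thra1*PV/+ library 3 was best matched by WT library 3, and the other *Thra1*PV/+ libraries by WT libraries of another number. Whether same-numbered libraries shared a batch cannot be told from these correlations and was not tested. The number of the 10 Sox genes called was 2, it ranged from 1 to 2 with 1 library left out, and it was 0 with the replicate block (adjusted p = 0.107 for *Sox21* and 0.123 for *Sox15*). It was also 0 with at least 10 counts in every library, a filter that *Sox15* and *Sox21* do not pass. In the other alternatives it was 2.

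With 1 library left out, the log2 fold change of *Sox17* ranged from -0.86 to 0.024 and changed sign without WT library 2. The other 8 tested Sox genes kept their direction in all alternatives that could be fitted for them. The log2 fold change of *Sox15* ranged from 4.54 to 5.41 and that of *Sox21* from 5.40 to 6.24 with 1 library left out. On log2 TPM with a pseudocount of 1 they were 2.06 and 1.79, since that scale understates the change of low genes. With the 3 stroma-rich libraries left out, chosen after seeing the data, *Sox15* and *Sox21* were called (adjusted p = 0.0276 and 0.0152).

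With 4 libraries per genotype, the exact permutation test cannot give a p below 0.0286, and none of the 5 ratios to marker lists used as tests passed an adjusted p of 0.1. With the 3 ratios to squamous genes also in the adjustment, as first planned, *Sox9* came to 0.114, and to 0.0762 without *Thra1*PV/+ library 4, values lowered by tests that are not used. The ratios of *Sox2*, *Sox15* and *Sox21* to squamous genes, or to *Krt5* alone, follow the markers or the prior count and are not used as tests. WT library 3 holds most counts of *Sox2*, at 111, and a few counts decide the WT levels of *Sox15* and *Sox21*. The ratios of these genes to markers are thus not precise at this depth.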

Other observations

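Of the marker lists for tissues with which no Sox gene of the 10 was compared, only that of ciliated epithelium held a gene called by edgeR. *Foxj1*, the master gene of motile cilia, was at 17.0 ± 4.66 CPM in WT and 2.94 ± 0.595 CPM in *Thra1*PV/+ libraries (SD, n = 4 each), and it fell by 2.54 on the log2 scale (standard error 0.27, adjusted p = 0.00723). *Foxj1* was the 1 called gene of 6 tested and the 1 with an unadjusted p under 0.05. Its call held with any 1 library left out. All 6 had negative fold changes, as did 10331 of all 18174 tested genes. Of the 8 leukocyte genes, all with positive fold changes, edgeR called 0 and DESeq2 1, and 3 had an unadjusted p under 0.05. Of the 10 stroma genes, all with negative fold changes, edgeR called 0 and DESeq2 1, and 1 had an unadjusted p under 0.05. The 8 smooth muscle genes also had negative fold changes, 0 were called by edgeR or DESeq2 and 7 had an unadjusted p under 0.05, with WT library 1 far above the rest.

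Some noncoding genes at Sox loci were high in WT library 2, the library with the most *Sox17*, while others were not. *Gm37587*, which overlaps *Sox17*, had 53 counts there and between 3 and 40 elsewhere, and *Gm26735* at *Sox4* had 2 counts there, its lowest. *Sox1ot*, which overlaps *Sox1*, had 280 estimated counts there and between 14.1 and 29.2 in the other 7 libraries, and *Sox2ot* had 124 counts there and at most 7 elsewhere. The coding genes *Sox1* and *Sox2* had 2 and 0 counts in that library. These noncoding genes were picked out after their values were seen.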
